A study of Homo sapiens with 9 samples.

Results

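The 10 genes described here are the YAP-TEAD genes of the study, that is the co-activators YAP1 and WWTR1, the DNA-binding factors TEAD1, TEAD3 and TEAD4, the target genes CTGF, CYR61, ANKRD1 and AMOTL2, and the kinase LATS2. They were picked by gene symbol among the 58174 genes of the deposited tables, of which 19799 are protein-coding. CTGF and CYR61 are the older symbols of CCN2 and CCN1. ES-2 is an established ovarian cancer cell line. Its total RNA was sequenced 72 h after transfection with control siRNAs (siC), with siRNAs against the mRNA-binding protein IGF2BP1 (siIGF2BP1) or with siRNAs against the transcription factor SRF (siSRF), with 3 libraries per condition. All 3 groups were thus siRNA-transfected, the same siC libraries served both knockdowns, and 1 set of siRNAs represents each depletion. The labels do not say whether the libraries of a condition came from separate cultures, so that p-values measure the spread between these libraries, which may be technical.

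YAP1 and WWTR1, whose protein is called TAZ, do not bind DNA themselves and act on transcription through TEAD factors. The kinases of the Hippo pathway phosphorylate YAP1 and TAZ and thereby keep them out of the nucleus, and some of the target genes, among them LATS2 and AMOTL2, encode proteins that restrain YAP1 in turn. CTGF, CYR61 and ANKRD1 are widely used as readouts of YAP1 and TAZ activity, and SRF with its MRTF co-factors is known to share targets with YAP-TEAD in cells with a contractile cytoskeleton. Only mRNA abundance was measured here, neither phosphorylation nor localization of the proteins, and in a bulk sample fewer cells of a type cannot be told apart from less RNA per cell.

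The depletions were seen in each library. IGF2BP1 was at 12.1 to 13.5 FPKM (fragments per kilobase of gene, scaled by library depth) in siC, at 4.02 to 4.18 in siIGF2BP1 and at 13.7 to 14.6 in siSRF. SRF was at 13.6 to 16.0 FPKM in siC, at 1.36 to 1.63 in siSRF and also lower, at 5.42 to 6.80, in siIGF2BP1. The depth of the libraries ranged from 6421764 to 9416175 reads on genes. Of the genes checked for the cell line label, the mesenchymal filament gene VIM was at 1055 FPKM in siC, the keratins KRT18 and KRT8 were at 43.4 and 8.81, PAX8, which marks many ovarian carcinomas, was at 0.155, and EPCAM, an epithelial surface antigen, had no read in siC. KRT18 was at 41.8 FPKM in siIGF2BP1 and 81.7 in siSRF, KRT8 at 12.9 and 10.1, and VIM at 883 and 853. KRT8 was called higher in siIGF2BP1 (log2 difference 0.55, limma adjusted p = 0.00455), a call lost with any of the 6 libraries left out. KRT18 was called higher in siSRF than in siC, also with each of the 6 libraries left out (log2 differences of 0.88 to 0.95). It was also called higher in siSRF than in siIGF2BP1, in 5 of the 6 fits with 1 library left out. VIM was called lower in siSRF than in siC, a call lost with any of the 6 libraries left out. EPCAM had 1 to 5 reads in the siIGF2BP1 libraries and at most 1 in those of siSRF. The part of these markers in the results was not tested. The leukocyte gene PTPRC had no read in any library and the endothelial gene PECAM1 was at 0.313 FPKM in siC.

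TEAD factors bind DNA at a short motif, which was sought before the start sites of the 10 genes. The core of the TEAD motif, GGAATG, was searched on both strands (CATTCC on the other strand) in the RefSeq promoter windows of GRCh38.p14, which hold 250 bases before and 50 bases after each start, and of which 7 of the 10 genes had one. It was found in the windows of 4 of these 7, CTGF, ANKRD1, YAP1 and LATS2, with 7 matches in all, and in 14.05% of the 27305 promoter windows of that length. The CTGF and ANKRD1 sequences are shown as those of the target with the largest difference between conditions and of the most abundant target, over the 250 bases before the start, 5′ to 3′ on the strand of the gene, with GGAATG in capitals.
CTGF, chr6:131951373-131951622, minus strand: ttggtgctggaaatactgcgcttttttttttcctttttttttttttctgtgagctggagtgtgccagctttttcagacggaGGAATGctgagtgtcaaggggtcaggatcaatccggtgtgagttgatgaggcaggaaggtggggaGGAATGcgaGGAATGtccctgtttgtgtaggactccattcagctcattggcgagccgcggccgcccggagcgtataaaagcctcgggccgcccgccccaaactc
ANKRD1, chr10:90921088-90921337, minus strand: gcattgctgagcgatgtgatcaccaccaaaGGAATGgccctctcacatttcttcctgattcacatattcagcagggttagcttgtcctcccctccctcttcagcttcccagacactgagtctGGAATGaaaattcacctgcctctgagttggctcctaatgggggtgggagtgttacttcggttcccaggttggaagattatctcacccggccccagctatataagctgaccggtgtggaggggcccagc
CTGF had 3 matches, which began 169, 104 and 95 bases before its start, and ANKRD1 had 2, at 220 and 128 bases. For YAP1 and LATS2, the 30 bases around the single match are given.
YAP1, chr11:102110273-102110302, plus strand: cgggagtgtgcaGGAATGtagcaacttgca
LATS2, chr13:21061560-21061589, minus strand: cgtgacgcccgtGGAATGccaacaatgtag
The match of YAP1 began 162 bases before its start, and that of LATS2 began at base 10 of the transcript. No match was found in the windows of AMOTL2, WWTR1 and TEAD3. The window of WWTR1, chr3:149703224-149703523, belongs to a start inside the span of the gene in GENCODE, so that the sequence before its outermost start was not searched. The window of AMOTL2, chr3:134375368-134375667, also belongs to a start inside the span of its gene, which ends at 134375479, but reaches past that end. The CArG box, the sequence bound by SRF, was searched only as CCWWWWWWGG, where W is A or T. It was not found in the windows of any of the 7 genes and was found in 1.29% of all promoter windows. At so low a share, none among 7 windows says little about these genes. Variants of the box and sequence outside the windows were not searched. A match describes the letters of the window and is not a measured binding site. CYR61, TEAD1 and TEAD4 were not among the windows.

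**Figure D1:**
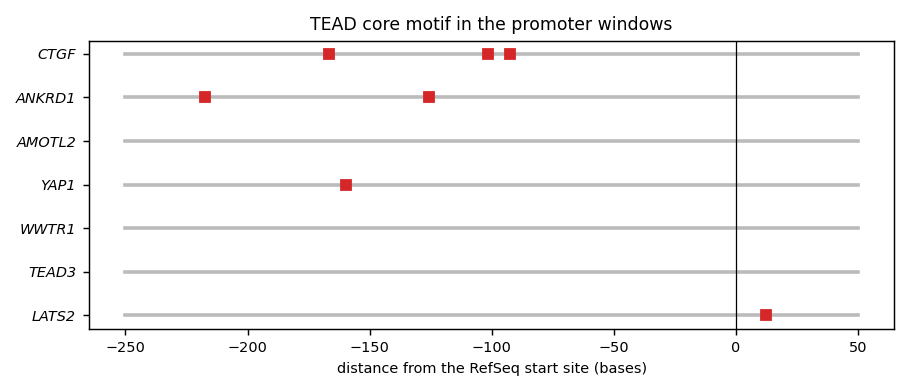
Position of the TEAD core motif (red squares, drawn at the middle of each match) in the promoter windows of 7 genes (grey lines), with the distance from the RefSeq start site in bases on the horizontal axis. CTGF held 3 matches, ANKRD1 2, YAP1 and LATS2 1 each, and AMOTL2, WWTR1 and TEAD3 none.

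The level of the 10 mRNAs in siC spanned from 668 FPKM for ANKRD1 to 1.44 FPKM for TEAD3. The order was ANKRD1, CYR61, YAP1, AMOTL2, CTGF, TEAD4, TEAD1, WWTR1, LATS2 and TEAD3, and AMOTL2 and CTGF were the only neighbours whose libraries overlapped. In siIGF2BP1 the order was identical, with no overlap between neighbours. In siSRF, CTGF took the third place, above YAP1 and AMOTL2, and TEAD4 and TEAD1 overlapped. FPKM are divided by the deposited length of each gene, and whether this is the length of the mRNA expressed here was not tested. The order of genes, and ratios and shares between genes, depend on this length. TEAD4, with 2272 bases, had 334 reads on average in siC, and TEAD1, with 10279 bases, had 944. The libraries behind the levels held at least 105 reads of each gene, except for TEAD3 with 23 to 41 reads.

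**Figure D2:**
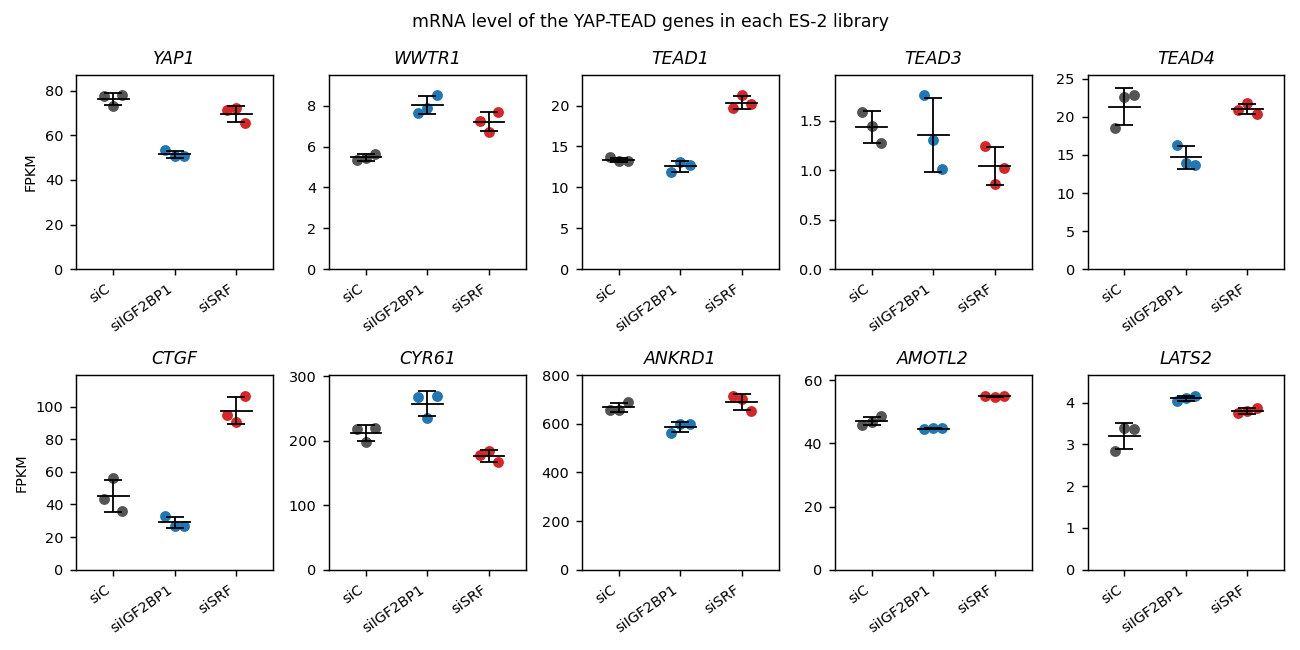
mRNA level of the 10 genes (FPKM on a linear axis from 0) in each of the 9 libraries, 3 per condition, with 1 panel per gene. Points are libraries, the long line is the mean and the short lines are the mean ± SD. CTGF was at 90.8 to 106.9 in siSRF against 36.2 to 56.1 in siC, and YAP1 at 50.5 to 53.4 in siIGF2BP1 against 73.1 to 77.9 in siC.

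Set beside the control, the 10 genes showed no common direction. Tests were run with limma on log2(FPKM + 0.1), which understates the change of low genes, over the genes that averaged 0.1 FPKM or more, and a gene was called at a Benjamini-Hochberg adjusted p of at most 0.01. All 10 genes passed the filter on low values. Upon IGF2BP1 depletion 1 gene (YAP1) fell and 1 (WWTR1) rose, where 3.57% of the 22292 genes tested fell and 3.55% rose. Upon SRF depletion no gene fell and 3 (CTGF, AMOTL2 and TEAD1) rose, where 5.34% of the 21857 genes tested fell and 6.85% rose. Compared directly, 1 gene (CYR61) was lower in siSRF than in siIGF2BP1 and 5 (CTGF, YAP1, TEAD1, TEAD4 and AMOTL2) were higher, where 8.82% of the 22311 genes tested were lower and 11.2% higher. The median log2 difference of the 10 genes was -0.10, 0.13 and 0.26 in these comparisons, against 0.02, 0.01 and -0.02 over all genes tested.

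Limma-voom, which models counts, called more genes. Run on the reads recovered from the FPKM, it called 4 of the 10 genes lower (YAP1, CTGF, ANKRD1 and TEAD4) and 2 higher (WWTR1 and CYR61) upon IGF2BP1 depletion, where it called 8.48% of all genes lower and 8.59% higher. Upon SRF depletion it called CYR61 lower and 4 genes higher (CTGF, AMOTL2, TEAD1 and WWTR1), where it called 10.7% of all genes lower and 12.7% higher. Between the knockdowns it called CYR61 lower and 6 genes higher, the 5 above and ANKRD1, where it called 14.7% of all genes lower and 16.3% higher. The limma test on FPKM, restricted to genes with a mean of at least 10 reads, called 2 of the 10 genes lower and 1 higher upon IGF2BP1 depletion (10.2% and 9.64% of such genes), 1 lower and 4 higher upon SRF depletion (13.5% and 16.3%), and 1 lower and 6 higher between the knockdowns (19.3% and 22.8%). At an unadjusted limma p under 0.05, 2 of the 10 genes (CYR61 and YAP1) were lower upon SRF depletion, as were 16% of all genes. Upon IGF2BP1 depletion 4 were lower at that p, as were 14.5% of all genes. Higher at that p were 3 upon IGF2BP1 depletion and 4 upon SRF depletion. Between the knockdowns 1 was lower and 6 were higher. For the higher genes and between the knockdowns, the shares of all genes at that p were not computed. These counts therefore have no background to be read against, and nothing is drawn from them. All 3 libraries of one condition lay above all 3 of the other for 9 of the 10 genes between siIGF2BP1 and siC, 8 between siSRF and siC and 8 between the knockdowns, against 35.6%, 39.9% and 46.1% of the genes tested. For such genes the two-sided exact permutation test gave p = 0.1, which is the lowest value possible with 3 against 3 libraries.

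Of the 2 co-activators, YAP1 fell and WWTR1 rose upon IGF2BP1 depletion. YAP1 (ENSG00000137693, chromosome 11, 102110447 to 102233424 on the plus strand, 9 exons, GRCh38) was at 77.7, 73.1 and 77.9 FPKM in siC and at 53.4, 50.7 and 50.5 in siIGF2BP1. The siIGF2BP1 libraries stood below each of the siC libraries, and the level fell to 67.7% of siC (log2 difference -0.56 ± 0.0459 standard error, limma adjusted p = 9.8e-04). The call held with each of the 6 libraries left out in turn. WWTR1 (ENSG00000018408, chromosome 3, 149517235 to 149736714 on the minus strand, 7 exons) was at 5.33, 5.44 and 5.64 FPKM in siC and at 7.66, 7.89 and 8.50 in siIGF2BP1. The libraries did not overlap and the level was 1.47-fold higher (log2 difference 0.54 ± 0.0702, limma adjusted p = 0.00455). This call was lost with any of the 6 libraries left out, at limma adjusted p between 0.0151 and 0.0239, while the difference stayed between 0.50 and 0.57.

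Upon SRF depletion neither co-activator passed the threshold of an adjusted p of 0.01. YAP1 was at 71.2, 72.2 and 65.5 FPKM, all below siC, with a log2 difference of -0.13 (95% interval -0.26 to -0.0033, limma adjusted p = 0.135). With the trends along GC content and length removed from each library, the difference was -0.22 (limma adjusted p = 0.0101). WWTR1 was at 7.26, 6.73 and 7.67 FPKM, all above siC, with a log2 difference of 0.39 (95% interval 0.21 to 0.57, limma adjusted p = 0.0119). Compared directly, YAP1 was 1.35-fold higher in siSRF than in siIGF2BP1 (log2 difference 0.43 ± 0.0492, limma adjusted p = 0.00108). WWTR1 overlapped between the knockdowns, with a log2 difference of -0.15 (95% interval -0.33 to 0.03, limma adjusted p = 0.184).

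YAP1 mRNA exceeded WWTR1 mRNA in each library. The ratio of YAP1 to WWTR1 was 13.9 ± 0.582 (SD, n = 3) in siC, 9.69 ± 1.10 in siSRF and 6.45 ± 0.518 in siIGF2BP1, without overlap between the conditions (8.54 to 10.7 in siSRF, 5.94 to 6.98 in siIGF2BP1). The sum of both mRNAs was 81.7 ± 2.77 FPKM in siC, 76.9 ± 3.19 in siSRF and 59.6 ± 1.33 in siIGF2BP1. The siIGF2BP1 sums, at 58.6 to 61.1 FPKM, lay below the other 6, of which siC and siSRF overlapped.

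Among the TEAD factors, which carry the DNA-binding domain of the complex, TEAD1 rose upon SRF depletion. TEAD1 (ENSG00000187079, chromosome 11, 12674421 to 12944737 on the plus strand, 13 exons) was at 13.7, 13.2 and 13.2 FPKM in siC, at 11.9, 13.1 and 12.8 in siIGF2BP1 and at 19.6, 21.2 and 20.2 in siSRF. The siSRF libraries stood apart from the other 6, 1.52-fold above siC (log2 difference 0.60 ± 0.0489, limma adjusted p = 7.3e-04), and the call held without any 1 of the 6 libraries. Upon IGF2BP1 depletion the log2 difference was -0.09 (95% interval -0.23 to 0.05, limma adjusted p = 0.359), and the direct difference of siSRF from siIGF2BP1 was 0.69 ± 0.0556 (limma adjusted p = 2.7e-04).

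TEAD4, the TEAD gene with the highest FPKM in siC, was lowest in siIGF2BP1. TEAD4 (ENSG00000197905, chromosome 12, 2959330 to 3040676 on the plus strand, 13 exons) was at 18.5, 22.6 and 22.8 FPKM in siC, at 16.4, 13.9 and 13.7 in siIGF2BP1 and at 20.9, 21.8 and 20.4 in siSRF. The siIGF2BP1 libraries were the lowest, without overlap, but the log2 difference from siC of -0.53 ± 0.108 did not pass the threshold (limma adjusted p = 0.0212). In siSRF the libraries overlapped with siC, with a log2 difference of -0.01 (95% interval -0.23 to 0.20), which was at 0.20 after removal of GC and length trends (limma adjusted p = 0.102) and just above 0 without siC replicate 2, siC replicate 3 or siSRF replicate 3. The direct comparison called TEAD4 1.43-fold higher in siSRF than in siIGF2BP1 (log2 difference 0.52 ± 0.0764, limma adjusted p = 0.00308). Of the 6 fits with 1 library left out, only that without siIGF2BP1 replicate 1 kept this call, and the other 5 gave differences of 0.47 to 0.54 at limma adjusted p between 0.0112 and 0.0167.

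TEAD3 (ENSG00000007866, chromosome 6, 35473597 to 35497079 on the minus strand, 13 exons) was the lowest of the 10 mRNAs, at 1.59, 1.45 and 1.27 FPKM in siC, 1.76, 1.31 and 1.01 in siIGF2BP1 and 1.24, 0.864 and 1.02 in siSRF. No difference was detectable at 23 to 41 reads per library (log2 differences from siC of -0.10 with a 95% interval of -0.68 to 0.47 and of -0.43 with an interval of -0.92 to 0.05). The sign of the former changed after removal of GC and length trends, or without siIGF2BP1 replicate 3.

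With TEAD2, which completes the family but was not among the 10 genes and is named for the sum, the TEAD mRNAs added up to 38.8 ± 1.88 FPKM (SD, n = 3) in siC, 31.1 ± 1.69 in siIGF2BP1 and 43.8 ± 1.14 in siSRF. The conditions did not overlap, with 36.8 to 40.5 FPKM in siC, 29.6 to 32.9 in siIGF2BP1 and 43.1 to 45.1 in siSRF. TEAD4 made up 54.8% ± 3.92 of the sum in siC, 47.1% ± 2.34 in siIGF2BP1 and 48.0% ± 0.588 in siSRF. TEAD1 made up 34.5% ± 2.38, 40.5% ± 3.93 and 46.5% ± 0.790. TEAD2 was at 2.71, 2.51 and 1.38 FPKM on average in siC, siIGF2BP1 and siSRF, and its log2 difference of -0.90 upon SRF depletion did not pass the threshold (limma adjusted p = 0.0314).

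**Figure D3:**
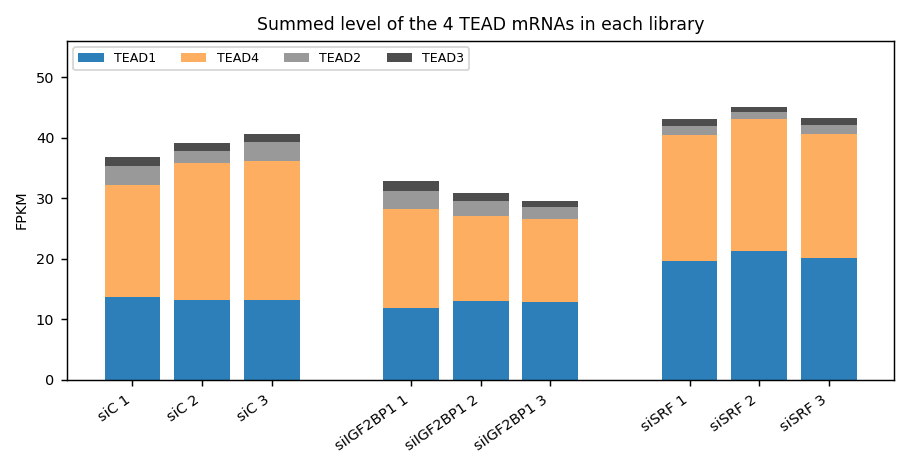
Stacked levels (FPKM, linear axis from 0) of TEAD1, TEAD4, TEAD2 and TEAD3 in each of the 9 libraries, so that the bar height is their sum. The bars of siSRF (43.1 to 45.1) lay above those of siC (36.8 to 40.5) and those of siIGF2BP1 (29.6 to 32.9) below, with the TEAD1 part larger in siSRF and the TEAD4 part smaller in siIGF2BP1.

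Of the target genes, CTGF differed most between the conditions. CTGF (ENSG00000118523, chromosome 6, 131948176 to 131951372 on the minus strand, 5 exons) encodes a secreted matrix-associated protein. It was at 43.4, 56.1 and 36.2 FPKM in siC, at 32.9, 27.0 and 27.0 in siIGF2BP1 and at 94.98, 90.8 and 106.9 in siSRF. The siSRF libraries were the highest and the siIGF2BP1 libraries the lowest, without overlap, although the siC libraries differed more among themselves than those of the other conditions (coefficient of variation 22.3%, against 11.8% in siIGF2BP1 and 8.53% in siSRF). CTGF rose 2.16-fold upon SRF depletion (log2 difference 1.13 ± 0.160, limma adjusted p = 0.00429). The call was kept without siC replicate 2 or siC replicate 3 and lost without any of the other 4 libraries, at limma adjusted p of 0.0193 to 0.0204 and differences of 1.06 to 1.18. Upon IGF2BP1 depletion the difference of -0.62 ± 0.168 did not pass the threshold (95% interval -1.03 to -0.22, limma adjusted p = 0.0542). Compared directly, CTGF was 3.37-fold higher in siSRF than in siIGF2BP1 (log2 difference 1.75 ± 0.0985, limma adjusted p = 7.8e-05), which held with each library left out in turn.

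CYR61, a secreted protein of the same family as CTGF, had the opposite order. CYR61 (ENSG00000142871, chromosome 1, 85580761 to 85584589 on the plus strand, 5 exons) was at 218, 198 and 219 FPKM in siC, at 267, 235 and 269.8 in siIGF2BP1 and at 178, 184 and 166 in siSRF. The libraries of siSRF lay below those of siC and the libraries of siIGF2BP1 above, without overlap. Neither difference from siC passed the threshold, with 0.28 ± 0.0741 upon IGF2BP1 depletion (limma adjusted p = 0.0527) and -0.27 ± 0.0604 upon SRF depletion (limma adjusted p = 0.0224). The direct comparison called CYR61 lower in siSRF than in siIGF2BP1, at 68.4% of its level there (log2 difference -0.55 ± 0.0689, limma adjusted p = 0.00162), also with each library left out. The ratio of CYR61 to CTGF was 4.88 ± 1.27 (SD, n = 3) in siC, 8.94 ± 0.967 in siIGF2BP1 and 1.82 ± 0.238 in siSRF, and its libraries did not overlap between the conditions (3.54 to 6.06, 8.13 to 10.0 and 1.56 to 2.02).

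ANKRD1, a nuclear and sarcomeric ankyrin repeat protein, was the most abundant of the 10 mRNAs. ANKRD1 (ENSG00000148677, chromosome 10, 90912096 to 90921087 on the minus strand, 9 exons) was at 656, 657 and 691 FPKM in siC, at 564, 602 and 599.8 in siIGF2BP1 and at 716, 702 and 655 in siSRF. The siIGF2BP1 libraries were lowest, at 88.1% of siC on average, but the log2 difference of -0.18 ± 0.0567 did not pass the threshold (limma adjusted p = 0.0822). The siSRF and siC libraries overlapped, with a log2 difference of 0.05 (95% interval -0.09 to 0.19) that was at -0.10 after removal of GC and length trends. The direct difference of 0.23 ± 0.0549 did not pass the threshold either (limma adjusted p = 0.0205).

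AMOTL2, an angiomotin family protein that binds YAP1, rose slightly upon SRF depletion. AMOTL2 (ENSG00000114019, chromosome 3, 134355347 to 134375479 on the minus strand, 10 exons) was at 46.0, 46.8 and 48.6 FPKM in siC, at 44.5, 44.8 and 44.9 in siIGF2BP1 and at 55.2, 54.7 and 54.9 in siSRF. The libraries of each condition stood apart from the others. AMOTL2 was 1.17-fold higher in siSRF than in siC (log2 difference 0.22 ± 0.0369, limma adjusted p = 0.00775), or 0.40 after removal of GC and length trends. The call was lost with any of the 6 libraries left out, at limma adjusted p between 0.0103 and 0.0361. In siIGF2BP1 the log2 difference was -0.07 (95% interval -0.17 to 0.02, limma adjusted p = 0.262), and the direct difference of 0.30 ± 0.0284 was called (limma adjusted p = 5.4e-04) and held with each library left out.

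LATS2, the kinase that phosphorylates YAP1 and TAZ and is itself a YAP-TEAD target, was among the low mRNAs. LATS2 (ENSG00000150457, chromosome 13, 20973036 to 21061586 on the minus strand, 8 exons) was at 2.85, 3.40 and 3.37 FPKM in siC, at 4.04, 4.10 and 4.17 in siIGF2BP1 and at 3.74, 3.80 and 3.87 in siSRF. Both knockdowns lay above siC in each library, with 105 to 197 reads per library. Neither difference passed the threshold, with 0.35 ± 0.103 upon IGF2BP1 depletion (limma adjusted p = 0.0704) and 0.24 ± 0.103 upon SRF depletion (limma adjusted p = 0.153). The direct difference was -0.11 (95% interval -0.28 to 0.06, limma adjusted p = 0.310).

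**Figure D4:**
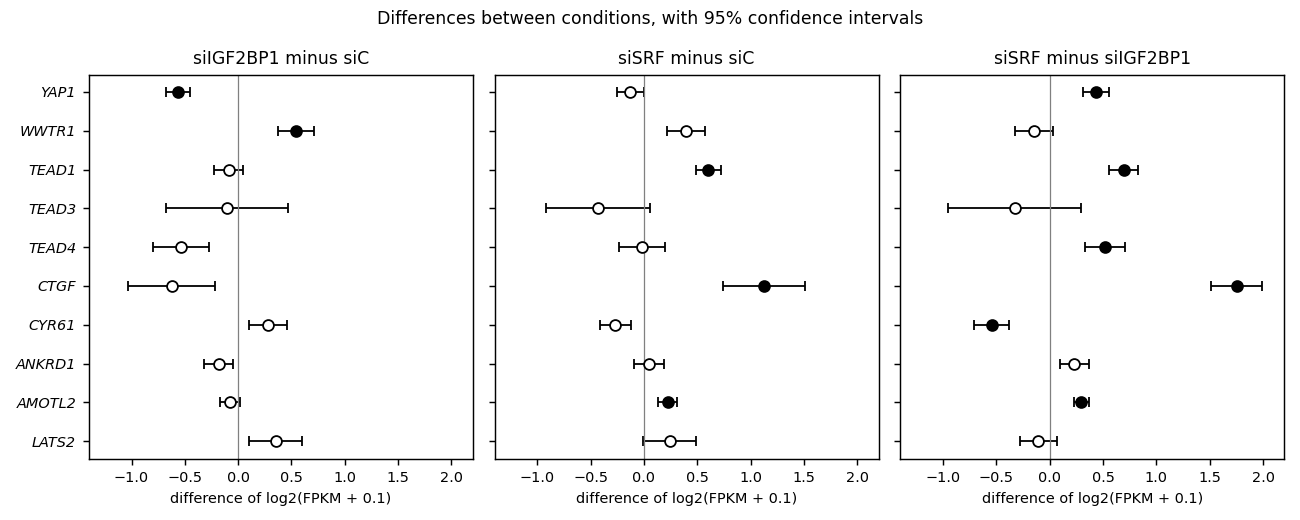
Differences of log2(FPKM + 0.1) for the 10 genes, siIGF2BP1 minus siC, siSRF minus siC and siSRF minus siIGF2BP1, with 95% confidence intervals from limma. Filled points passed an adjusted p of 0.01, which held for YAP1 and WWTR1 in the first panel, for TEAD1, CTGF and AMOTL2 in the second, and for YAP1, TEAD1, TEAD4, CTGF, CYR61 and AMOTL2 in the third.

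The other genes of the pathway were taken from lists of kinases and adaptors, of partners and of published target genes. These lists were chosen with earlier results of these data known, so their counts are a description. The 15 kinases and adaptors of the Hippo pathway, which act upstream of YAP1 and TAZ, were all tested. Upon SRF depletion 8 of the 15 rose and 1 fell, where 6.85% of all genes tested rose and 5.34% fell, with a median log2 difference of 0.47. Upon IGF2BP1 depletion 1 rose and 1 fell, where 3.55% of all genes rose and 3.57% fell, with a median of 0.12. The 8 were STK4 (the MST1 kinase, 0.51), MOB1B (a co-activator of LATS kinases, 0.65), the TAO kinases TAOK1 (0.53), TAOK2 (0.47) and TAOK3 (0.72), the scaffold proteins WWC1 (also called KIBRA, 1.07) and WWC2 (0.60), and the FERM domain protein FRMD6 (1.02), with limma adjusted p between 1.2e-04 and 0.00887. WWC3 fell (log2 difference -1.38 ± 0.0904, limma adjusted p = 4.5e-04). Upon SRF depletion and with 1 library left out, 3 to 6 of the 15 were called higher. There were 3 left without siSRF replicate 1 or siSRF replicate 3, 4 without siC replicate 1 or siSRF replicate 2 and 5 without siC replicate 2. In these fits 2.12% to 5.14% of all genes were called higher. TAOK2 was called in none of these 6 fits, MOB1B and WWC2 in 1, TAOK1 in 2 and STK4 in 3. WWC1, TAOK3 and FRMD6 were called higher in all 6, and WWC3 was called lower in each.

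WWC1 went opposite ways in the depletions. It was at 9.26 FPKM ± 0.233 (SD, n = 3) in siC, fell to 6.58 ± 0.360 in siIGF2BP1 (log2 difference -0.49 ± 0.0665, limma adjusted p = 0.00534, a call that was lost with any of the 6 libraries left out) and rose to 19.5 ± 0.206 in siSRF. FRMD6 rose in both, from 12.9, 11.2 and 11.9 FPKM in siC to 21.8 ± 0.629 in siIGF2BP1 (log2 difference 0.86 ± 0.0655, limma adjusted p = 8.0e-04) and 24.4 ± 1.03 in siSRF. The most abundant genes of the list in siC were NF2, which encodes the tumour suppressor merlin, at 58.1 FPKM, and MOB1A at 31.2 FPKM. NF2 was at 42.4 FPKM in siIGF2BP1 (log2 difference -0.45, limma adjusted p = 0.0113) and at 58.7 in siSRF, and MOB1A was at 35.4 and 32.6 FPKM. Compared directly, 7 of the 15 were higher in siSRF than in siIGF2BP1 (STK4, NF2, WWC1, WWC2, TAOK2, TAOK3 and MAP4K4), and WWC3 was lower, where 11.2% of all genes were higher and 8.82% lower, with a median of 0.22. With 1 library left out 5 of the 15 were called higher, or 4 without siIGF2BP1 replicate 3, where 7.07% to 8.79% of all genes were. NF2 and TAOK2 were called in 2 of these 6 fits and WWC2 in 1. All libraries under the filter at 1 FPKM gave 8 of the 15 higher and 1 lower, where 19.3% of all genes were higher and 14.2% lower. The log2 difference of MAP4K4 was 0.47, between 19.2 FPKM in siIGF2BP1 and 26.7 in siSRF.

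Of the 8 other YAP1 and TEAD partners, 6 were tested. AMOT had 1 read in all 9 libraries together and VGLL1 had none, which does not show that either mRNA was absent. Upon IGF2BP1 depletion 1 of the 6 rose (3.55% of all genes) and upon SRF depletion 2 rose (6.85% of all genes), with medians of 0.18 and 0.06. Under the filter at 1 FPKM, 2 of the 6 rose in each depletion, as did 6.53% and 12.7% of all genes. PTPN14, a phosphatase that binds YAP1, was the most abundant of them and rose in both, from 39.5 FPKM to 53.4 in siIGF2BP1 (log2 difference 0.43, limma adjusted p = 0.00163) and to 50.7 in siSRF (0.36, limma adjusted p = 0.00198). AMOTL1, the next in abundance, was at 19.6, 18.5 and 18.5 FPKM. VGLL3, a TEAD cofactor, rose upon SRF depletion from 1.36 to 3.36 FPKM (log2 difference 1.25 ± 0.160, limma adjusted p = 0.00301). Between the knockdowns VGLL3 was higher in siSRF (1.33) and VGLL2 was lower (-1.19, at 1.18 FPKM against 2.83), with a median of -0.21, where 11.2% of all genes were higher and 8.82% lower. Of the genes averaging at least 1 FPKM, 19.3% were higher and 14.2% lower. VGLL2 was at 1.44 FPKM in siC and had 18 to 50 reads per library. Its log2 difference of 0.94 upon IGF2BP1 depletion did not pass the threshold (limma adjusted p = 0.0273). The call of PTPN14 upon IGF2BP1 depletion was lost without any 1 of the siIGF2BP1 libraries. Upon SRF depletion none of the 6 was called without siSRF replicate 1 or siSRF replicate 2, and 1 was called without siSRF replicate 3. In the fits without a siSRF library, 2.12% to 2.84% of all genes were called higher.

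The 17 other published YAP1 and TAZ target genes, which include PTPN14, were all tested. Upon IGF2BP1 depletion 5 rose and none fell, where 3.55% of all genes rose and 3.57% fell, with a median log2 difference of 0.38. These were AXL, a receptor tyrosine kinase (0.93 ± 0.0561, limma adjusted p = 3.9e-04), CCDC80, a secreted matrix protein (1.84 ± 0.0820, limma adjusted p = 1.5e-04), NT5E, the ecto-nucleotidase CD73 (0.38, limma adjusted p = 0.00799), ARHGEF17 (0.69, limma adjusted p = 0.00364), and PTPN14. Limma-voom called 11 of the 17 higher and none lower, where it called 8.59% of all genes higher and 8.48% lower. At an unadjusted limma p under 0.05, FOXF2 and GADD45A were lower, as were 14.5% of all genes. With 1 library left out 2 to 5 were called higher, with 2 left without any 1 of the siIGF2BP1 libraries and 3 without siC replicate 1 or siC replicate 3. In these fits 0.956% to 1.88% of all genes were called higher. NT5E was called in none of these 6 fits, ARHGEF17 in 1, PTPN14 in 3, and AXL and CCDC80 in all 6.

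Upon SRF depletion 5 of the 17 rose and 2 fell, where 6.85% of all genes rose and 5.34% fell, with a median of -0.03. Under the filter at 1 FPKM, 5 of the 16 genes kept rose and 3 fell, where 12.7% of all genes rose and 9.69% fell. F3, the tissue factor (1.21), GADD45A, a stress-response protein (1.08), CCDC80 (1.29), NUAK2, an AMPK-related kinase (1.08), and PTPN14 rose, with limma adjusted p between 1.2e-04 and 0.00483. F3 and NUAK2 also lay above siC in each siIGF2BP1 library, without passing the threshold there. Their log2 differences upon IGF2BP1 depletion were 1.19 (limma adjusted p = 0.0102) and 0.73 (limma adjusted p = 0.0344). AXL fell (-0.37 ± 0.0468, limma adjusted p = 0.00292), as did MYOF, a membrane repair protein of the ferlin family (-0.44 ± 0.0604, limma adjusted p = 0.00377). With 1 library left out, 2 to 4 were called higher, with 2 left without siSRF replicate 1 or siSRF replicate 2 and 3 without siC replicate 1 or siSRF replicate 3. In these fits 2.12% to 5.14% of all genes were called higher and 2.21% to 3.08% lower. F3 and NUAK2 were each called in 1 of these 6 fits, PTPN14 in 4, and CCDC80 and GADD45A in all 6. The 2 called lower were kept without siC replicate 3, 1 was left without siC replicate 1, and none without any of the other 4 libraries.

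AXL and MYOF were the most abundant of the 17 genes in siC. AXL was at 269.8 FPKM in siC, 516 in siIGF2BP1 and 209 in siSRF, and MYOF at 167, 189 and 123. Between the knockdowns, 7 of the 17 were lower in siSRF than in siIGF2BP1, namely AXL (-1.30), MYOF (-0.62), ASAP1 (-0.77), CRIM1 (-0.23), CCDC80 (-0.54), NT5E (-0.45) and ARHGEF17 (-1.24), and GADD45A was higher (1.28), where 8.82% of all genes were lower and 11.2% higher, with a median of -0.19. The call of CRIM1 was lost with any of the 6 libraries left out. Under the filter at 1 FPKM, 8 of the 16 genes kept were lower and 1 higher, where 14.2% of all genes were lower and 19.3% higher.

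**Figure D5:**
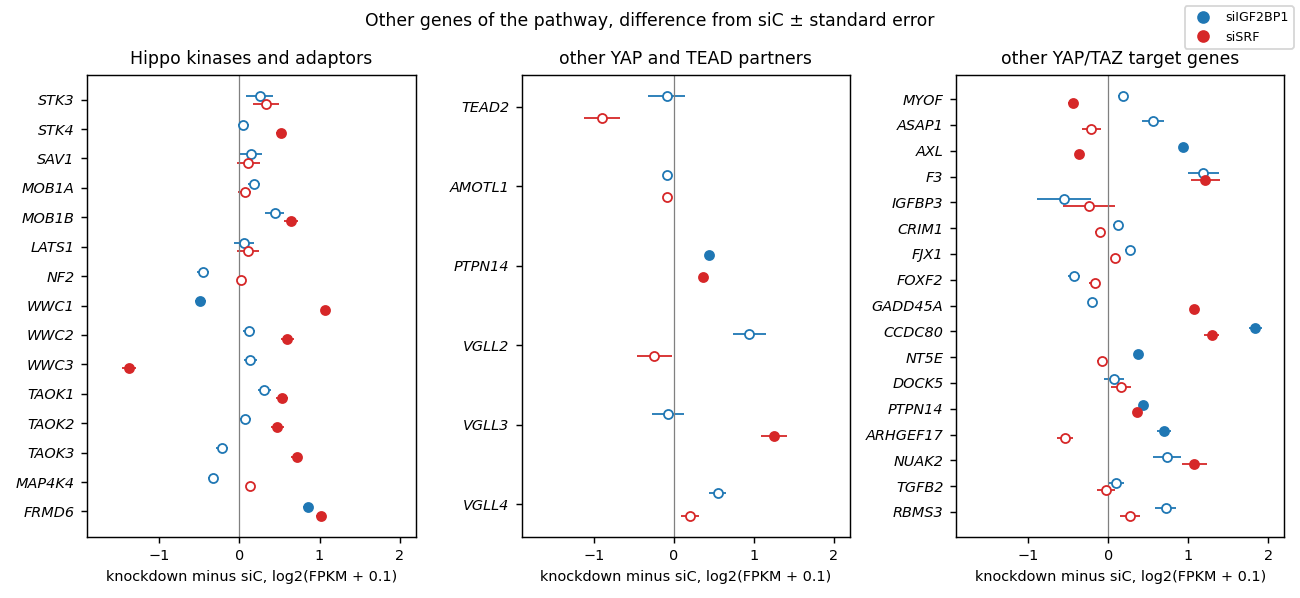
Differences from siC (log2 of FPKM + 0.1, with standard error bars) for the tested genes of the 3 lists, siIGF2BP1 in blue and siSRF in red. Filled points passed a limma adjusted p of 0.01. In the left panel 8 of 15 genes were called higher and WWC3 lower in siSRF, and in the right panel AXL and ARHGEF17 lay above 0 in siIGF2BP1 and below 0 in siSRF.

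The genes with patterns most like those of CTGF and TEAD1, the 2 of the 10 genes with the widest range between condition means, were sought among 10380 genes by Pearson's correlation of log2(FPKM + 0.1) over the 9 libraries. For CTGF they were UBE2J2, a ubiquitin-conjugating enzyme (r = 0.993), EPHA4, an ephrin receptor (r = 0.989), and CCDC137 (r = 0.989). EPHA4 was at 4.13 FPKM in siC, 3.18 in siIGF2BP1 and 6.84 in siSRF. For TEAD1 they were MNAT1, a subunit of the CDK-activating kinase (r = 0.996), PDHX, a component of the pyruvate dehydrogenase complex (r = 0.996), and SERTAD2 (r = 0.993). MNAT1 was at 7.93, 7.13 and 14.5 FPKM in these conditions. An r of at least 0.9 was reached by 754 genes for CTGF and by 1057 genes for TEAD1, and the 9 points share the 3 conditions and the depth of their libraries.

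Some genes overlap the 10 loci, and whether the counting used strand is not given in the sources used here. WWTR1-IT1, which overlaps WWTR1 on the same strand, was at 4.29 FPKM in siC, 4.33 in siIGF2BP1 and 3.99 in siSRF, where WWTR1 averaged 5.47, 8.02 and 7.22. The non-coding gene ENSG00000277459, opposite to YAP1, was at 3.97, 3.80 and 4.13 FPKM. The other overlapping genes reached at most 1.42 FPKM on average in a condition, among them LINC01013 opposite to CTGF, which was listed at 0 in siC and siIGF2BP1 and at 0.0219 FPKM in siSRF.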

How the data were processed

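Total RNA of ES-2 cells was depleted of ribosomal RNA and sequenced from directional libraries. Per the submitters' processing notes, the authors used cutadapt 1.14, HISAT2 2.1.0, SAMtools 1.5 and featureCounts 1.5.3 on hg38, and compared conditions with edgeR 3.18.1. They deposited FPKM values per library, scaled by TMM factors, in 2 tables in which the siC values are identical. The tables also hold the authors' fold changes, p-values and FDR, which were not used. FPKM are not counts, so the log2(FPKM + 0.1) of 2 conditions at a time were compared in R 4.3.3 by the moderated test of limma 3.58.1, with a mean-variance trend. Genes averaging under 0.1 FPKM in the 6 libraries were left out, and the Benjamini-Hochberg adjustment covered the remainder. This differs from the test of the study. FPKM times length gave whole reads (tolerance 0.01) for 100% of the values above 0, and these reads entered limma-voom as an alternative.

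The 10 genes and the lists of other pathway genes were chosen with earlier results of these data known. All 10 genes are named, and of the lists the genes called in at least 1 comparison and the 2 most abundant in siC, with TEAD2, FOXF2, AMOT and VGLL1 added after their values were seen. Conditions were taken from the sample labels. The alternatives were pseudocounts of 1 and 0.01, other filters, median-ratio scaling, robust eBayes, all 9 libraries in one fit, a replicate block, removal of trends along GC content and length, a threshold of 0.05 and leaving out each library. A filter of at least 10 reads on average was added after the data were seen. The fits were also run on simulated reads with the same spread set for all genes, which cannot give the error rates in these data. Coordinates are those of GENCODE 44 on GRCh38. Proteins were not analysed here. Intervals are 95% intervals from limma and cover the spread between libraries.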

Additional observations from a re-analysis of the deposited data

Results flagged for a closer look

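The effects of the 2 depletions differed in the direct comparison of siSRF with siIGF2BP1 for 6 of the 10 genes (limma adjusted p of at most 0.01), 5 higher and 1 lower in siSRF, where 11.2% of all genes tested were higher and 8.82% lower. For CTGF (log2 difference 1.75, siSRF minus siIGF2BP1), AMOTL2 (0.30) and TEAD1 (0.69), the siSRF libraries lay above and the siIGF2BP1 libraries below all siC libraries. For CYR61 (-0.55) the order was turned. For YAP1 (0.43), both knockdowns lay below siC, siIGF2BP1 further. For TEAD4 (0.52), siIGF2BP1 lay below siC, while siSRF overlapped with it. In the same libraries SRF mRNA was lower in both knockdowns, at 1.47 FPKM in siSRF and 6.01 in siIGF2BP1 against 14.5 in siC, and its part in these differences was not tested.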

How the results depend on the processing

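The differences of the 10 genes and the called differences of the lists kept their direction under all alternatives run, except for 3 of the 10 genes with small differences. TEAD3 upon IGF2BP1 depletion was at 0.011 with GC content and length taken out, and between -0.30 (without siIGF2BP1 replicate 1) and 0.076 (without siIGF2BP1 replicate 3) with 1 library left out. Upon SRF depletion and with GC content and length taken out, ANKRD1 was at -0.10 and TEAD4 at 0.20, and with 1 library left out TEAD4 was between -0.11 (without siC replicate 1) and 0.037 (without siC replicate 3). The cause was not tested. Among list genes that were not called, GC content and length taken out also turned STK4 upon IGF2BP1 depletion (-0.04), MOB1A (-0.15) and FOXF2 (0.06) upon SRF depletion, and PTPN14 between the knockdowns (0.10), among others. TEAD3 had 23 to 41 reads per library.

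The number of calls depended on the test. Upon IGF2BP1 depletion, 1 of the 10 genes fell and 1 rose, and 1588 genes were called in all. Limma-voom gave 4, 2 and 3805, and at least 10 reads gave 2 lower and 2760 in all. All 9 libraries in one fit gave 2 lower and 2481 in all, and a threshold of 0.05 gave 2 lower and 3596 in all. Leaving out 1 library gave 0 to 0 higher and 436 to 738 in all. Upon SRF depletion, 0 fell, 3 rose and 2665 were called in all. CYR61 made 1 lower with limma-voom (5123 in all), at least 10 reads (4071), GC content and length taken out, or a threshold of 0.05 (5205). Leaving out 1 library gave 1 to 2 higher and 946 to 1796 in all. Between the knockdowns, 1 was lower, 5 were higher and 4460 were called in all, against 6912 with limma-voom, 7132 at 0.05 and 2885 to 3358 with 1 library left out.

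With a replicate block in the fit, 0 lower, 0 higher and 91 in all were called upon IGF2BP1 depletion, 0 higher and 501 in all upon SRF depletion, and 0 lower, 3 higher and 2075 in all between the knockdowns. The main fit had no block because no shared culture is stated for same-numbered libraries. Same-numbered libraries did not deviate together from their condition means (correlations of -0.0438 to 0.0186 over 14168 genes), and 0, 2 and 0 of 6 libraries correlated best with their own number. A block also leaves fewer degrees of freedom, and its part in the lower counts was not tested.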
